A study of Mus musculus with 12 samples.

Results

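Cytosolic ribosomal protein genes were examined in LN T cells of B6 and FlipFlop mice. Their members were the genes of the deposited table whose symbol is that of a protein of the large (Rpl, Rplp) or small (Rps, Rpsa) subunit, taken by the pattern of the symbol and without Rpl29. This gave 83 of 12809 listed genes, 49 of the large and 34 of the small subunit, and all 83 were among the 11595 genes tested. The annotation (GENCODE M21, GRCm38) calls 80 of them protein coding, whereas Rps3a2, Rpl6l and Rps4l, whose symbols also fit the pattern, are annotated as processed pseudogenes. The cytosolic ribosome is built of a large and a small subunit, each of ribosomal RNA and single copies of most ribosomal proteins, so the cell makes these proteins in nearly equal numbers. Most of their mRNAs begin with a run of pyrimidines, the 5′ terminal oligopyrimidine tract, through which TOR signaling and the RNA-binding protein LARP1 set their translation and stability together. Naive T cells are small and quiescent, and their ribosome production increases when they are activated.

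CD4 and CD8 T cells had been sorted from LN of female mice, and RNA-sequencing libraries were compared in 4 groups of 3, the CD4 and the CD8 T cells of each strain. B6 is strain C57BL/6, whose coreceptor loci are unaltered. In FlipFlop mice the *Cd4* gene loci encode CD8αβ.1 proteins and the *Cd8a* gene loci encode CD4 proteins, so that helper lineage T cells carry CD8 and cytotoxic lineage T cells carry CD4. The altered *Cd8a* allele was made in 129R1 embryonic stem cells, from which strain 129 DNA remains in these mice, and the other allele was made in B6 cells. The labels give an age of 10 weeks for B6 and of 14 weeks for FlipFlop mice, so strain and age cannot be told apart. The labels do not say whether replicates are separate mice, and p-values therefore measure the spread between these samples, which may be technical.

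Zbtb7b, which encodes the helper lineage factor ThPOK, measured 192 to 203 CPM in B6 CD4 and 162 to 172 CPM in FlipFlop CD8 T cells, against 1.16 to 2.79 CPM in both other groups. In all 12 libraries its level was that of the lineage that the label implies. CPM is the count per 1000000 reads, here scaled by the authors with TMM, a factor for differences in composition between libraries. The value of one read was estimated from the spacing of the low values, at 0.0286 to 0.0400 CPM. This puts the reads on the listed genes at 26600000 to 33100000 per library. The estimate fell short of the check for whole reads given with the methods. By it, counting error is small for all but the lowest members.

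The starts of some members are shown first, because a pyrimidine run near the start is the feature that the family is best known for. Of the 80 protein coding members, 61 had a start region in the RefSeq table (GRCm38.p6), with 72 starts in all. An unbroken run of at least 8 C or T on the coding strand, within 40 bases on either side of the annotated start, was found in 51 of 72 member starts (70.8%) and in 29.3% of all 32851 starts. It was found at 1 start or more in 47 of the 61 members, and the 14 without it included Rplp0, Rpsa, Rps3a1, Rps4x and Rpl7l1. The following 30 bases of each gene run 5′ to 3′ on the coding strand, with the longest run in capitals if it has 8 bases or more (the first of equal ones, as in Rps27l, where another run stays in lower case), and where there is none they are centred on the start. Rpl4, Rpl13, Rplp0 and Rps2 are members with large differences or reference genes, and the last 4 are diverged paralogues.
Rpl4 (chr9:64173361-64173390, plus strand): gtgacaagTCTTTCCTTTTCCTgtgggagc
Rpl13 (chr8:123102324-123102353, plus strand): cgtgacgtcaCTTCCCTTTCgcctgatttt
Rplp0 (chr5:115559452-115559481, plus strand): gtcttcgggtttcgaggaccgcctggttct
Rps2 (chr17:24720078-24720107, plus strand): actataaattgTCCCTTCCgcggcgcctcc
Rpl22l1 (chr3:28805499-28805528, plus strand): cgcaagcccgTTCTCTTCCCacggctgcag
Rpl7l1 (chr17:46782642-46782671, minus strand): gtgaggctgcgcaagcgcagtagctgaagc
Rps27l (chr9:66946053-66946082, plus strand): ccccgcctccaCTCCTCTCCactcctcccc
Rpl39l (chr16:10170191-10170220, plus strand): aacacccactgCCTCTCCCTagctcccagg

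The run did not begin at the annotated start in any of the 6 genes shown that have one. It began 18 bases before the start in Rpl4 and 16 before it in Rpl13, 26 after it in Rps2, 1 after it in Rpl22l1, and 22 and 26 before it in Rps27l and Rpl39l, paralogues with low levels, where the printed bases end before the start. In the window from 250 bases before to 50 bases after the start, searched on both strands, CCGGAAG, the core of sites bound by ETS factors such as GABP, was found in 37.5% of member starts and 8.86% of all starts. TATAAA was found in 9.72% and 13.6%, and CACGTG, the E-box that MYC and MAX bind, in 11.1% and 7.15%. The reverse complement of CCGGAAG holds CTTCC and can overlap a pyrimidine run. The median lineage difference, defined below, was -0.37 on the log2 scale for the 47 members with a run and -0.35 for the 14 without, and the median strain difference was -0.35 for both.

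In T cells these genes were among the most abundant of all. By mean CPM over the 12 libraries 76 of the 83 members were above 500 CPM, 2 were among the 10 highest genes of the table and 30 among the 50 highest. The 5 highest were Rpsa (6829 CPM), which encodes a small subunit protein also known as the laminin receptor, Rplp0 (5842 CPM) and Rplp1 (4901 CPM), which form the stalk of the large subunit, Rps24 (4484 CPM) and Rps3a1 (4381 CPM). Per kilobase of the annotated transcript, Rplp1 led with 9822 CPM per kb and Rps27 followed with 9731 CPM per kb. In the B6 CD4 and FlipFlop CD8 groups Rps27 was above Rplp1, so these neighbours cannot be ordered. Next was Rps29 with 6544 CPM per kb. The median was 2029 CPM per kb for the large and 2931 CPM per kb for the small subunit.

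The low end held the paralogues and pseudogenes. On the same scale per kb, Rpl22l1 had 455 and Rpl22 306, Rps27l 64.6 and Rpl7l1 37.2, Rps3a2 24.9 and Rpl6l 6.59, and Rpl39l 0.929 and Rps4l 0.862 CPM per kb. Some lengths are those of long transcripts, such as 5179 bases for Rps15a, and their values per kb depend on that choice.

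As a share of all signal in a library, the family was lowest in FlipFlop CD8 T cells. The 83 members held 22.4%, 17.8% and 17.4% in B6 CD4 against 20.8%, 20.6% and 20.8% in B6 CD8 T cells. They held 15.7%, 14.1% and 13.4% in FlipFlop CD8 against 20.7%, 19.1% and 17.0% in FlipFlop CD4 T cells. Thus all 3 FlipFlop CD8 libraries were below the other 9, whereas the other 3 groups overlapped. B6 CD8 libraries differed little from each other (20.7% ± 0.118 SD, n = 3). B6 CD4 libraries spread more (19.2% ± 2.80 SD, n = 3), and replicate 1 stood apart from the other two. FlipFlop CD4 averaged 18.9% ± 1.86 and FlipFlop CD8 14.4% ± 1.18 (SD, n = 3). A share does not change when a column is rescaled. The ratio of large to small subunit signal lay between 1.12 and 1.17 in every library, so both subunits kept nearly the same proportion while their total changed. In sorted cells, less RNA of these genes per cell and fewer cells with high levels cannot be told apart.

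**Figure D1:**
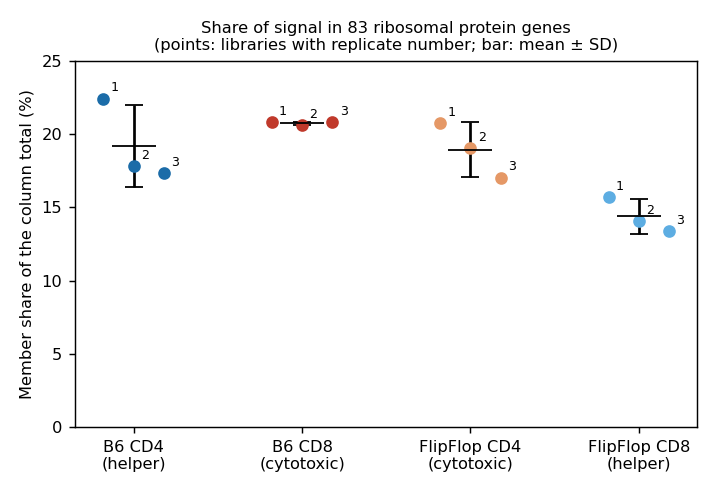
Share of the summed signal of each library (%, vertical axis) held by the 83 members, in the 4 groups on the horizontal axis. Points are libraries with their replicate number, and bars give mean ± SD. The FlipFlop CD8 libraries sit at 13.4% to 15.7%, and replicate 1 of B6 CD4 sits at 22.4% against 17.8% and 17.4% for the others.

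The members moved together from library to library. Within B6 CD4 all 83 members were highest in replicate 1. Of FlipFlop CD4 libraries replicate 1 was highest for 80 members and replicate 3 lowest for 75, and of FlipFlop CD8 libraries replicate 1 was highest for 81 and replicate 3 lowest for 79. B6 CD8 libraries had no such order, with 24, 11 and 48 members highest in the 3 replicates. Between groups, 82 members had their lowest group mean in FlipFlop CD8 T cells and 78 their highest in B6 CD8 T cells, and for 73 members each FlipFlop CD8 library was below all other 9, as it was for 10.9% of all genes tested. Because members share this movement, counts of members called are not counts of independent results.

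**Figure D2:**
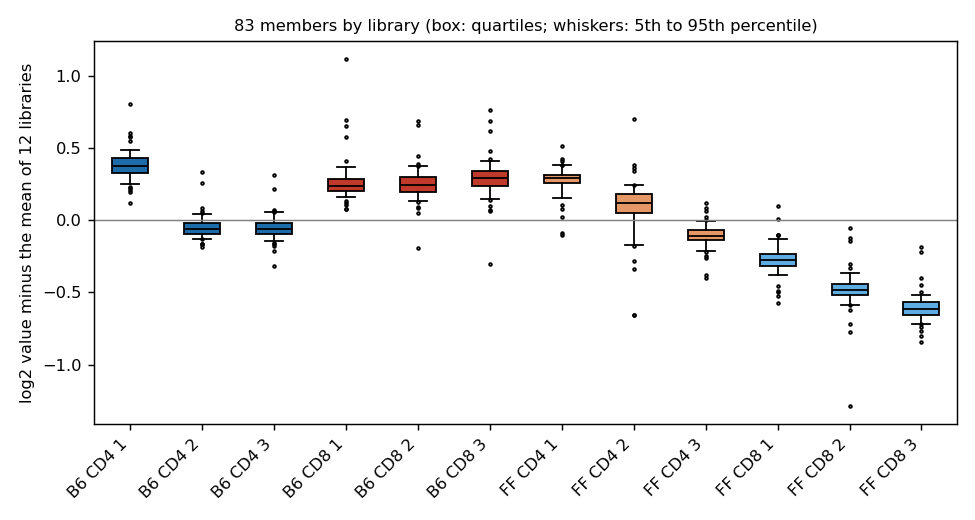
Distribution of the 83 members in each of the 12 libraries, as log2(CPM + 0.5) minus the member's mean over all libraries (vertical axis). Boxes give quartiles, whiskers the 5th to 95th percentile and points members beyond, with FF for FlipFlop. The whole family shifts between libraries, upward in replicate 1 of B6 CD4 and downward in the 3 FlipFlop CD8 libraries.

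The lineage effect compared helper lineage T cells (B6 CD4 and FlipFlop CD8) with cytotoxic lineage T cells (B6 CD8 and FlipFlop CD4) of both strains. Averaged over both strains, ribosomal protein genes were lower in helper lineage cells. Of the 83 members, 74 fell and 0 rose at an adjusted p under 0.05 (limma, Benjamini-Hochberg adjusted over all 11595 genes), whereas 19.4% of all tested genes fell. The median difference was -0.37 on the log2(CPM + 0.5) scale, a level of 77.4% of that in cytotoxic lineage cells, beside a median of -0.03 over all genes tested. By subunit, 44 of 49 large and 30 of 34 small subunit genes fell, with medians of -0.36 and -0.38. The 83 values lay between -0.51 and -0.02. Leaving out any 1 of the 12 libraries gave 54 to 78 members called, with 78 without replicate 1 of B6 CD4 (23.2% of all genes tested then fell) and 54 without replicate 3 of FlipFlop CD8 (16.7%). For 0 of the 83 members were all 6 helper lineage libraries below all 6 cytotoxic lineage libraries, which held for 7% of all genes tested. Within B6 alone the median was -0.16 and 1 member was called lower (10.8% of all genes tested). Within FlipFlop the median was -0.56 and 74 members were called lower (15.3%).

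The lineage effect was largest for Rplp1 (chromosome 9, 61913284 to 61914542, GRCm38), which encodes a stalk protein that helps to recruit elongation factors. It measured 5994, 4442 and 4551 CPM in B6 CD4 against 5884, 6013 and 6162 CPM in B6 CD8 T cells. It measured 3468, 3203 and 3023 CPM in FlipFlop CD8 against 5792, 5441 and 4841 CPM in FlipFlop CD4 T cells. The FlipFlop groups were fully apart, while replicate 1 of B6 CD4 lay within the B6 CD8 range. Rplp1 fell by 0.51 ± 0.09 (SE) with an adjusted p of 0.000734 (limma).

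Rpl4 (chromosome 9, 64173375 to 64178666), a large subunit protein that reaches into the peptide exit tunnel, was the only member called in B6 alone. It measured 3824, 3268 and 3171 CPM in B6 CD4 against 4328, 4180 and 4285 CPM in B6 CD8 T cells. In FlipFlop mice it measured 2825, 2535 and 2399 CPM in CD8 against 4357, 4112 and 3668 CPM in CD4 T cells. In both strains all helper lineage libraries lay below all cytotoxic lineage libraries. Rpl4 fell by 0.48 ± 0.08 (SE, adjusted p = 0.00027, limma), and within B6 by 0.32 ± 0.11 (adjusted p = 0.0461).

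Other members with large lineage differences were Rpl32, Rps18, Rps6, Rpl13 and Rpl23a, with log2 differences of -0.47 to -0.45. Rps6 encodes the ribosomal protein that S6 kinase phosphorylates downstream of TOR. Rpl32 lies on chromosome 6 (115805505 to 115808747), which also carries the altered coreceptor loci, and it measured 2081 ± 361 CPM in B6 CD4 against 2526 ± 50.5 CPM in B6 CD8 T cells, and in FlipFlop mice 1450 ± 219 CPM in CD8 against 2285 ± 377 CPM in CD4 T cells (SD, n = 3). Its strain difference was -0.34 ± 0.11 (SE), close to the median of the family. Members that were not called for lineage included Rps29, Rpl24, Rpl22, Rpl7l1, Rps27l, Rpl6l, Rps4l and Rpl39l. With the replicate number as a block within strain, 80 members fell (22.5% of all genes tested), and only Rpl7l1, Rps27l and Rpl39l were not called. By the rule on correlations given with the methods, the FlipFlop libraries count as paired and the B6 libraries do not, though no label gives a pairing.

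The strain effect compared FlipFlop with B6 libraries over both lineages. Averaged over both lineages, ribosomal protein genes were lower in FlipFlop T cells: 68 of 83 members fell and 0 rose, whereas 15.4% of all tested genes fell. The median difference was -0.34 (a level of 78.9% of that in B6), beside -0.01 over all genes tested. By subunit, 40 of 49 large and 28 of 34 small subunit genes fell, and 64 members were called for both strain and lineage (5.54% of all genes tested fell for both). The count rested on single libraries more than that for lineage. It was 40 without replicate 2 (10.2% of all genes tested then fell) and 36 without replicate 3 (10.3%) of B6 CD8, 36 without replicate 3 of FlipFlop CD4 (10.3%), and 38 without replicate 2 (10.1%) and 35 without replicate 3 (9.72%) of FlipFlop CD8, while the median stayed between -0.39 and -0.27 without any 1 library. Without replicate 1 of B6 CD4 it was 56 (14.6%). All 6 FlipFlop libraries were below all 6 B6 libraries for 3 members, and for 3.19% of all genes tested. Between the cytotoxic lineage groups alone the median was -0.15, and 2 members fell, Rplp0 and Rps2 (3.75% of all genes tested). Between the helper lineage groups the median was -0.53, and 76 members fell (14.4%).

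Rplp0 and Rps2 had the largest strain differences and are described with their pseudogenes further on. Next came Rps4l at -0.71 ± 0.19 (SE, adjusted p = 0.0143, limma), a transcribed processed pseudogene on chromosome 6 with a mean of 0.813 CPM. It ranged over 0.581 to 1.09 CPM in B6 CD4 and 0.800 to 2.17 CPM in B6 CD8 T cells. In FlipFlop mice it ranged over 0.257 to 0.628 CPM in CD8 and 0.446 to 0.657 CPM in CD4 T cells. B6 CD8 libraries thus did not overlap with FlipFlop libraries, whereas B6 CD4 libraries did. To be tested, a gene needed at least 1 CPM in 3 libraries. Rps4l reached 1 CPM only in replicate 1 of B6 CD4 and replicates 1 and 3 of B6 CD8. Its entry into the test thus depended on high B6 values, which favoured a fall in FlipFlop. Its adjusted p, counted among the calls for strain, therefore cannot show a strain difference. Rps19, the gene most often mutated in Diamond-Blackfan anemia, differed by -0.46 ± 0.10 (SE, adjusted p = 0.00625). It measured 3530, 2519 and 2598 CPM in B6 CD4 against 1989, 1799 and 1611 CPM in FlipFlop CD8 T cells. It measured 2968, 3099 and 3071 CPM in B6 CD8 against 2963, 2498 and 2254 CPM in FlipFlop CD4 T cells. FlipFlop CD8 libraries of Rps19 were the lowest, whereas replicate 1 of FlipFlop CD4 exceeded 2 of the B6 CD4 libraries. Rps27, Rpl5, Rps14 and Rpl27 followed with differences of -0.46, -0.46, -0.43 and -0.43.

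**Figure D3:**
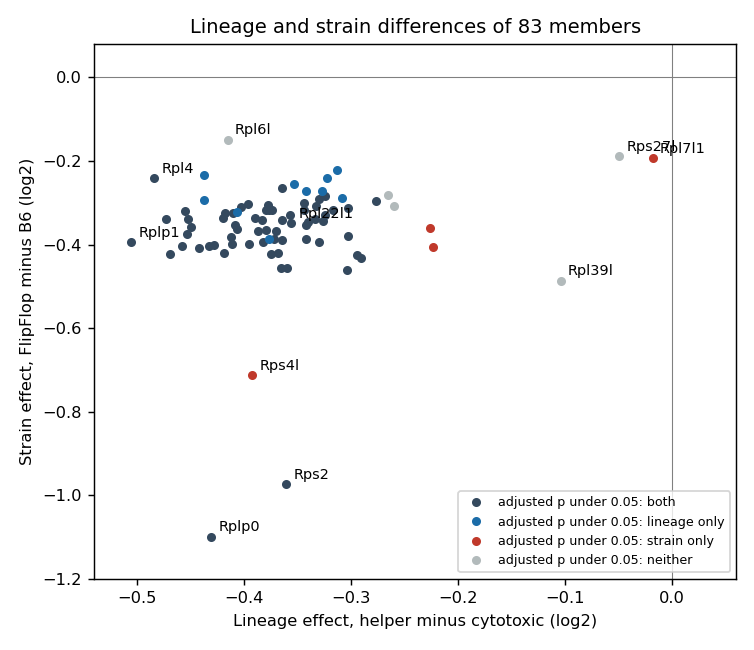
Lineage difference (horizontal axis) against strain difference (vertical axis) of the 83 members on the log2 scale, coloured by which of the differences had an adjusted p under 0.05. Every member is below 0 on both axes. Rplp0 and Rps2 stand apart at strain differences of -1.10 and -0.97, and Rpl7l1 and Rps27l lie nearest 0 for lineage.

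The groups were also compared in pairs. Between FlipFlop CD8 and FlipFlop CD4 T cells 74 members fell (15.3% of all genes tested), with a median of -0.56, and for 74 members the libraries did not overlap (25.6% of all genes tested). Within B6, 1 member, Rpl4, fell in CD4 relative to CD8 T cells (10.8% of all genes tested), with a median of -0.16, and 7 members did not overlap (17.2%). Between the helper lineage groups, FlipFlop CD8 and B6 CD4, 76 members fell (14.4%) with a median of -0.53, and 78 did not overlap (23.4%). Between the cytotoxic lineage groups, FlipFlop CD4 and B6 CD8, 2 members fell (3.75%), Rplp0 and Rps2, with a median of -0.15, and 16 did not overlap (15.7%). FlipFlop CD8 T cells are part of both comparisons with many calls, which does not show that the pairs differ. Each group enters 2 of the 4 pairs, so the pairs are not independent.

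These counts depended on single libraries. In B6, 22 members were called without replicate 1 of B6 CD4, where 12.2% of all genes tested fell. The count was 2 without replicate 1 of FlipFlop CD4 (10.3%). It was 0 without replicate 2 (9.21%) or 3 (11.1%) of B6 CD4, 1 (8.53%) or 3 (8.56%) of B6 CD8, 2 of FlipFlop CD4 (10.2%) or 2 of FlipFlop CD8 (10.1%), with 0 to 6 members at an unadjusted p under 0.05 (limma), beside 30.6% to 36.4% of all genes tested. With the replicate number as a block, 6 members were called in B6 (13.2%) and 79 between the FlipFlop groups (18.4%). For FlipFlop CD8 against B6 CD4 the count was 38 without replicate 1 of B6 CD4 (8.47%), 27 without replicate 2 (6.08%) and 13 without replicate 3 (5.32%) of FlipFlop CD8, and 23 where only the 6 libraries of the pair were fitted (5.11%). Between the FlipFlop groups it was 47 without replicate 1 of FlipFlop CD4 (11.1%) and 48 without replicate 3 of FlipFlop CD8 (10.8%). For the cytotoxic lineage pair it was 1 without replicate 1 (2.64%) or 3 (2.3%) of B6 CD8 or replicate 2 (2.43%) or 3 (2.42%) of FlipFlop CD4.

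The difference between the strains' lineage differences was itself tested, and it was called for 0 of the 83 members by limma (5.49% of all genes tested), with 22 members at an unadjusted p under 0.05 (18.6% of all genes tested). With the replicate number as a block within each strain it was called for 2 members, among them Rps29, and for 8.23% of all genes tested, and 57 members and 25% of all genes were then at an unadjusted p under 0.05. The same test is that of the difference between the lineages' strain differences. Its median was -0.37 on the log2 scale, meaning that helper minus cytotoxic was lower in FlipFlop than in B6, and its 95% confidence interval reached a median of 0.44 to either side. For Rplp1 the interval ran from -0.84 to -0.05 (adjusted p = 0.207), and for Rpl4 from -0.66 to 0.01 (adjusted p = 0.287). Without the block, a difference between the strains is thus not shown for any member, nor is its absence.

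**Figure D4:**
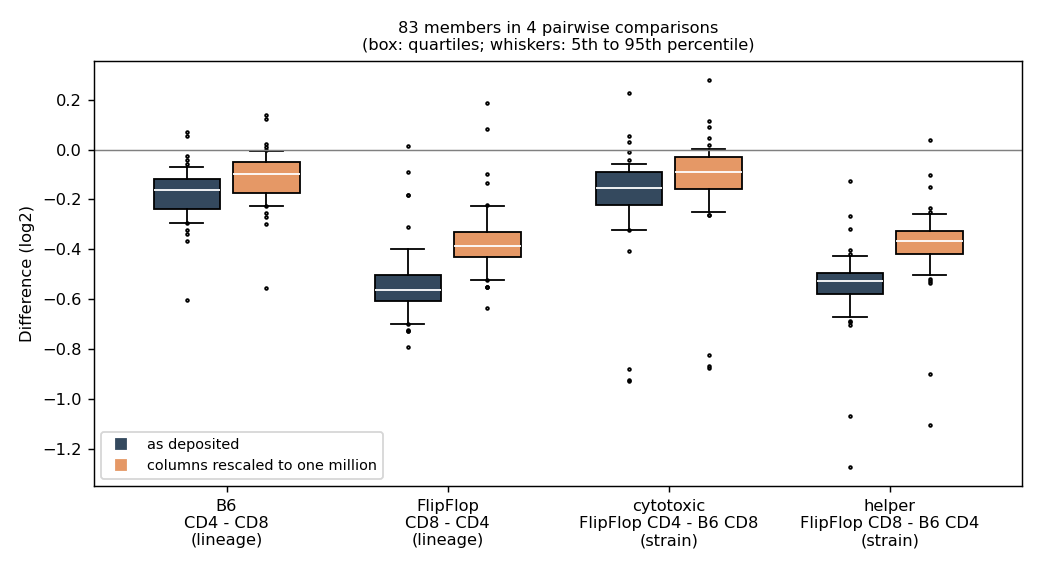
Differences of the members (vertical axis, log2 scale) in the 4 pairs of groups on the horizontal axis, for the columns as deposited (dark, 83 members) and rescaled to a sum of 1000000 (light, 82 members). Boxes give quartiles, whiskers the 5th to 95th percentile and points members beyond. The median is -0.56 between the FlipFlop groups and -0.53 between the helper lineage groups as deposited, and -0.39 and -0.37 after rescaling.

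The deposited columns do not share one total, and their sums ran from 875501 in replicate 3 of FlipFlop CD8 to 1081793 in replicate 3 of B6 CD8. Rescaled to a sum of 1000000 each, 82 members passed the filter and Rpl39l did not. For lineage 54 members then fell (10% of all genes tested) and for strain 40 (6.51%), with medians of -0.25 and -0.23, and 0 rose. Rescaling also moved the median of all genes, to 0.09 for lineage and 0.10 for strain. Relative to it, the median of the members was -0.34 for lineage under both scalings, and -0.34 as deposited and -0.33 after rescaling for strain. Of all genes, 2306 rose and 2248 fell for lineage as deposited, against 3599 and 1163 after rescaling, and for strain 1827 rose and 1788 fell against 3245 and 756. After rescaling 64 members fell between the FlipFlop groups (6.76%), 57 between the helper lineage groups (4.75%), 1 within B6 (7.86%) and 2 between the cytotoxic lineage groups (2.94%). The direction for the family was thus kept under both scalings with fewer calls after rescaling.

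Rplp0 and Rps2 differed from the rest of the family in the strain effect, and their processed pseudogenes differed with them. Rplp0 (chromosome 5, 115559467 to 115563727) encodes the scaffold of the large subunit stalk. It measured 8142, 6748 and 6647 CPM in B6 CD4 against 3780, 2184 and 3145 CPM in FlipFlop CD8 T cells. It measured 8425, 8610 and 8624 CPM in B6 CD8 against 5763, 3383 and 4661 CPM in FlipFlop CD4 T cells. All 6 FlipFlop libraries were below all 6 B6 libraries, and replicate 2 was lowest in both FlipFlop groups. The strain difference was -1.10 ± 0.15 (SE, adjusted p = 0.000377, limma).

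Gm8730, a processed pseudogene of Rplp0 on chromosome 8 (102864845 to 102865798), moved the other way. Over 954 aligned bases it differs from the coding sequence of Rplp0 at 12 and is 98.7% identical. It measured 7.32 to 9.85 CPM in the 6 B6 libraries. In FlipFlop mice it measured 898, 1660 and 781 CPM in CD8 and 1359, 2462 and 1172 CPM in CD4 T cells, in each group highest where Rplp0 was lowest. Its strain difference was 7.13 ± 0.20 (SE, adjusted p = 3.1e-10, limma). The stretch of 60 bases with the most differences, coding bases 388 to 447 counted from 1 at the start codon, is printed from the GENCODE M21 transcripts to show how alike both genes are, and capitals mark the bases that differ.
Rplp0: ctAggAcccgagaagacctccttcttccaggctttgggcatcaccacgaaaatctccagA
Gm8730: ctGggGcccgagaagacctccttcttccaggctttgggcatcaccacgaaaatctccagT

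Of 538 pseudogenes in the table, 189 matched a member over at least 50% of their length at 80% identity or more, and 67 members had such a match. For Rplp0 its 5 matched pseudogenes held 0.183% of the summed signal of gene and pseudogenes in B6 and 30.9% in FlipFlop libraries. The sum measured 7880 ± 923 CPM in B6 and 5531 ± 1326 CPM in FlipFlop libraries (SD, n = 6). Fitted on that sum, the strain difference was -0.54 ± 0.09 (SE, adjusted p = 0.00119), and replicate 2 then lay between the others in both FlipFlop groups.

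Rps2 (chromosome 17, 24718116 to 24721929), a small subunit protein near the site where mRNA enters, gave the same picture. It measured 3497, 2785 and 2707 CPM in B6 CD4 against 1564, 1413 and 1298 CPM in FlipFlop CD8 T cells. It measured 3475, 3693 and 3583 CPM in B6 CD8 against 2172, 1917 and 1768 CPM in FlipFlop CD4 T cells. The strains did not overlap, and the strain difference was -0.97 ± 0.08 (SE, adjusted p = 9.3e-06, limma). Its pseudogene Rps2-ps10, on chromosome 18, measured 23.0 to 36.1 CPM in B6 and 544 to 982 CPM in FlipFlop libraries. Pseudogenes matched to Rps2 held 1.20% of the summed signal in B6 and 31.4% in FlipFlop libraries. On the sum, the strain difference of Rps2 was -0.45 ± 0.09 (SE, adjusted p = 0.00352).

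Among the other members the largest rise in the pseudogene share was 2.36 percentage points, for Rpl27. The pseudogenes of Rpl5 held 17.5% of its sum in B6 and 18.6% in FlipFlop libraries. With all matched pseudogenes added to their members, 74 members fell for lineage (19.3% of all genes then tested), 69 fell for strain (15.6%) and 0 between the cytotoxic lineage groups (3.81%; with 8 members and 23.1% of all genes at an unadjusted p under 0.05), where Rplp0 and Rps2 had been the 2 calls. This sum was added after the values were seen. The sources used here do not give how reads that match several genes were counted, and the part that this or strain 129 DNA has in these values was not tested.

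**Figure D5:**
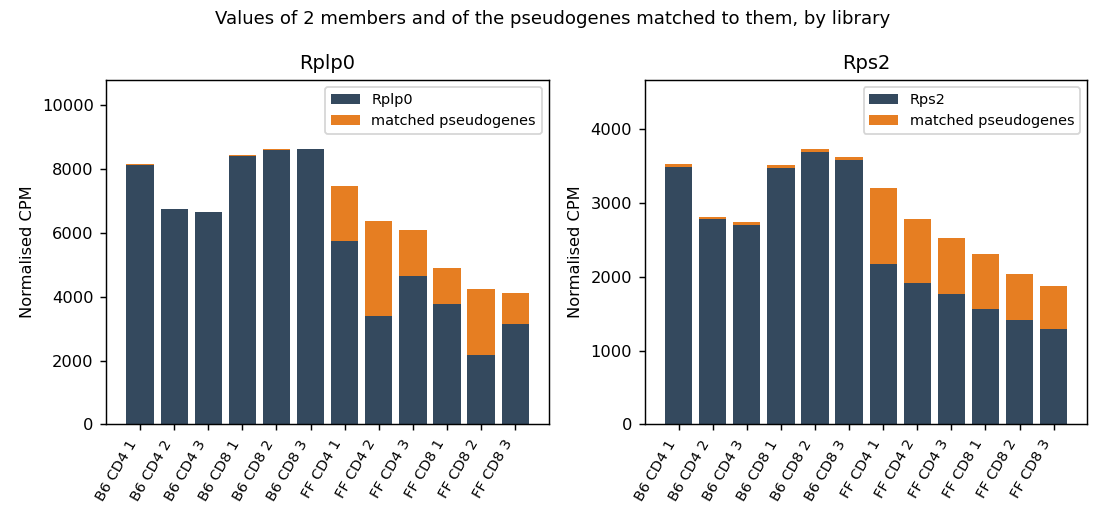
Normalised CPM (vertical axis) of Rplp0 (left) and Rps2 (right) in dark and of the pseudogenes matched to each in orange, stacked, in the 12 libraries, with FF for FlipFlop. The pseudogenes hold 0.183% and 1.20% of the stack in B6 and 30.9% and 31.4% in FlipFlop libraries.

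Paralogues and related copies of a ribosomal protein gene were compared with it as ratios within a library, which do not depend on scaling. In all, 6 pairs were tested for lineage and strain with an exact permutation test (two-sided, 400 arrangements, smallest p 0.005), and none of the 12 tests passed 0.05 after adjustment over them. A lone test at the smallest p is adjusted to 0.06, so no ratio could pass by itself. Rpl7l1, a protein of ribosome assembly related to Rpl7, came closest. Relative to Rpl7 it measured 3.20%, 3.59% and 3.49% in B6 CD4 against 3.18%, 3.13% and 3.11% in B6 CD8 T cells. It measured 3.74%, 4.12% and 4.26% in FlipFlop CD8 against 2.85%, 3.09% and 3.28% in FlipFlop CD4 T cells. Within each strain all helper libraries were above all cytotoxic libraries, though by little in B6, and the lineage difference was 0.26 on the log2 scale (exact p = 0.005, the smallest possible, adjusted p = 0.06). Without replicate 2 of FlipFlop CD4 its adjusted p was 0.03. Rpl7l1 itself measured 84.8 CPM at the lowest, in FlipFlop CD8, and 115 CPM at the highest, in B6 CD4 T cells, with a lineage difference of -0.02 ± 0.05 (SE), and of 0.10 after rescaling to 1000000.

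Rps27l, a paralogue of Rps27 that p53 induces, measured 1.26%, 1.38% and 1.34% of Rps27 in FlipFlop CD8 against 0.859%, 0.842% and 0.914% in FlipFlop CD4 T cells. It measured 0.881%, 0.925% and 0.890% in B6 CD4 against 0.879%, 0.878% and 0.912% in B6 CD8 T cells. Only the FlipFlop CD8 libraries stood apart, and the lineage difference of the ratio was 0.31 (exact p = 0.025, adjusted p = 0.1). Rpl36al, which the symbol pattern leaves out, measured 38.4% ± 0.522 of Rpl36a in B6 CD4 and 33.5% ± 0.771 in B6 CD8 T cells, and 35.7% ± 1.38 in FlipFlop CD4 and 36.8% ± 0.824 in FlipFlop CD8 T cells (SD, n = 3). Its lineage difference was 0.12 (exact p = 0.02, adjusted p = 0.1, and adjusted p = 0.03 without replicate 2 of FlipFlop CD4). Rpl22l1, which like Rpl22 binds RNA and has been linked to T cell development, measured 30.6% to 49.7% of Rpl22 over all libraries, with a lineage difference of -0.10 (exact p = 0.52, adjusted p = 0.693). Rpl39l, best known from testis, and Rps4l measured at most 1.58 and 2.17 CPM, and the ratios of Rpl39l to Rpl39 and of Rps4l to Rps4x had exact p-values of 0.135 to 0.71.

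Rpl13 and Rpl13a are the members that the study names as reference genes for RT-qPCR. Its methods give assays and normalization for Rpl13a alone, while Rpl13 is named in a figure legend. Rpl13 measured 3958, 2859 and 2930 CPM in B6 CD4 against 3756, 3908 and 3877 CPM in B6 CD8 T cells. It measured 2428, 2124 and 1969 CPM in FlipFlop CD8 against 3805, 3328 and 3081 CPM in FlipFlop CD4 T cells, so FlipFlop CD8 libraries were below all others. It fell by 0.45 ± 0.10 for lineage (SE, adjusted p = 0.00241, limma) and by 0.38 ± 0.10 for strain (adjusted p = 0.0136). Rpl13a measured 4282 ± 866 CPM in B6 CD4 against 4738 ± 222 CPM in B6 CD8 T cells, and in FlipFlop mice 2966 ± 442 CPM in CD8 against 4344 ± 643 CPM in CD4 T cells (SD, n = 3). It fell by 0.36 ± 0.11 for lineage (SE, adjusted p = 0.025) and by 0.33 ± 0.11 for strain (adjusted p = 0.0451). After rescaling to 1000000, Rpl13 fell by 0.33 for lineage and by 0.26 for strain, while Rpl13a was not called for either (adjusted p = 0.0602 and 0.0884). Without a single library, the lineage call of Rpl13a was lost for replicates 2 and 3 of B6 CD4, 3 of B6 CD8, 1 and 2 of FlipFlop CD4 and 2 and 3 of FlipFlop CD8 (adjusted p = 0.0515 to 0.0636). Its strain call was lost for replicate 1 of B6 CD4, 1, 2 and 3 of B6 CD8, 2 and 3 of FlipFlop CD4 and 2 and 3 of FlipFlop CD8 (adjusted p = 0.0718 to 0.107), with median-of-ratios rescaling (0.0504) and without eBayes (0.0777). Both genes thus moved with the family in the sequencing data.

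To describe how members differed from their own family, each column was rescaled to an equal sum of the 83 members, which sets the family to about no change. On that scale 81 members passed the filter, and 7 of them were called for lineage and 12 for strain, beside 61.9% and 67.9% of all genes tested. These members were chosen after their values were seen. For lineage Rplp1 was lower by -0.13, and the others called were higher by 0.10 to 0.36, among them Rpl7, Rps29, Rpl24, Rps27l and Rpl7l1. For strain Rplp0 and Rps2 were lower by -0.71 and -0.59, and 10 members were higher by 0.09 to 0.19, among them Rpl4 at 0.14, Rpl21 at 0.16 and Rpl41 at 0.14. As deposited, the quartiles over all 83 members were -0.41 and -0.33 for lineage and -0.39 and -0.31 for strain.

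Other genes of the translation machinery were compared from lists that the symbol pattern does not enter. Of the ribosomal proteins outside the pattern, Fau, Rack1, Rpl36al and Rps27rt fell for lineage and for strain. After rescaling to 1000000, Rack1 alone of these 4 fell for lineage, and Rack1, Fau and Rps27rt fell for strain. Rack1, a scaffold of the small subunit, fell by 0.45 ± 0.09 for lineage (SE). Of 8 genes of elongation 8 fell for lineage and 4 for strain (medians -0.34 and -0.24), beside 19.4% and 15.4% of all genes tested. After rescaling 5 fell for lineage and 3 for strain (medians -0.22 and -0.13), beside 10.0% and 6.51%. As deposited, the elongation genes were led by Eef1b2, an exchange factor of eEF1, at -0.51 for lineage and -0.41 for strain. For lineage they were also led by Eef2k, the kinase that inhibits eEF2, at -0.80. Of 15 other mRNAs known to begin with the oligopyrimidine tract, Eef1b2 among them, 11 fell and 1 rose for lineage, and 8 fell for strain (medians -0.24 and -0.27). Of all genes tested 19.4% fell and 19.9% rose for lineage, and 15.4% fell for strain. As deposited, the riser was Vim, vimentin, at 0.38, and among the others Npm1 fell by 0.37 for lineage and Tpt1 by 0.36 for strain. After rescaling to 1000000, 5 fell and 1 rose for lineage, beside 10.0% and 31.0% of all genes tested. For strain 5 then fell and 2 rose, beside 6.51% and 27.9%.

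Of 37 initiation factors, 14 fell for lineage and 16 for strain (medians -0.14 and -0.16), beside 19.4% and 15.4% of all genes tested. Among those that fell were Eif3h at -0.31 and Eif4b at -0.24 for lineage and Eif3j1 at -0.62 and Eif3i at -0.47 for strain. After rescaling to 1000000, 3 rose and 1 fell for lineage, beside 31.0% and 10.0% of all genes tested. For strain 5 rose and 9 fell, beside 27.9% and 6.51%. The medians were then -0.02 and -0.05, beside 0.09 and 0.10 over all genes tested. The balance of the calls for lineage thus changed with the scaling, as it did over all genes. Of 85 ribosome biogenesis factors 58 fell for lineage, and 36 fell and 1 rose for strain, with medians of -0.26 and -0.13. Of all genes tested 19.4% fell for lineage, and 15.4% fell and 15.8% rose for strain. After rescaling 36 of the factors fell and 1 rose for lineage, beside 10.0% and 31.0% of all genes tested. For strain 11 then fell and 6 rose, beside 6.51% and 27.9%. Rrp12 fell by 0.65 and Rrs1 by 0.49 for lineage, and Utp4 by 0.42 and Bysl by 0.36 for strain, whereas Mdn1, an ATPase of pre-60S maturation, rose by 0.52. Within B6 alone, 33 of these 85 genes fell, beside 10.8% of all genes tested, and 20 after rescaling, beside 7.86%.

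Among 24 tested genes of TOR and MYC control, 2 rose and 9 fell for lineage, and 3 rose and 5 fell for strain. Of all genes tested 19.9% rose and 19.4% fell for lineage, and 15.8% rose and 15.4% fell for strain. After rescaling 3 of the 24 rose and 3 fell for lineage, beside 31.0% and 10.0% of all genes tested. For strain 9 then rose and 3 fell, beside 27.9% and 6.51%. Myc, which drives transcription of ribosome genes, fell by 0.49 ± 0.06 for lineage (SE, adjusted p = 2.1e-05, limma), with 105 CPM in B6 CD4, 146 in B6 CD8, 144 in FlipFlop CD4 and 101 CPM in FlipFlop CD8 T cells. Rictor fell by 0.47. Mxd1 and Mxd4, which compete with MYC for MAX, rose by 0.74 and 0.61. For strain Mxd4 rose by 0.54 and Mtor by 0.44, and Mlst8 fell by 0.42 and Rheb by 0.28. Of 78 tested mitochondrial ribosomal proteins, which belong to another ribosome, 21 fell and 1 rose for lineage and 36 fell for strain (medians -0.10 and -0.20). After rescaling 4 fell and 8 rose for lineage, beside 10.0% and 31.0% of all genes tested, and 17 fell for strain, beside 6.51%. Mrps6 rose by 0.45 for lineage, Mrpl34 and Mrps36 fell by 0.36 each, and Mrpl1 fell by 0.95 and Mrps34 by 0.71 for strain. The transcripts encoded in mitochondria held 2.71% to 4.19% of a library, least in replicate 1 of B6 CD4, at 4.11% in replicate 3 of B6 CD4 and at 3.99% to 4.19% in FlipFlop CD8 libraries, and of 15 such genes 1 rose for lineage and 0 were called for strain (after rescaling 3 and 2 rose).

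Markers of T cell states differed in the same groups. The counts of markers stand beside 19.9% of all genes tested that rose and 19.4% that fell for lineage. For strain these shares were 15.8% and 15.4%. After rescaling to 1000000, 31.0% rose and 10.0% fell for lineage, and 27.9% rose and 6.51% fell for strain. All 4 markers of regulatory T cells (Ctla4, Foxp3, Ikzf2 and Il2ra) rose for lineage and for strain, and their summed level was 251 to 329 CPM in B6 CD4 and 709 to 864 CPM in FlipFlop CD8 T cells, against 12.4 to 26.2 CPM in the other groups. Of 5 markers of memory or effector cells 3 rose for lineage and 2 for strain, with summed levels of 320 to 614 CPM in FlipFlop CD8 and 104 to 136 CPM in FlipFlop CD4 libraries, against 170 to 210 CPM in B6 CD4 and 218 to 259 CPM in B6 CD8. Of 5 markers of naive cells 2 fell for lineage and 3 for strain, with summed levels of 3498 to 3630 CPM in FlipFlop CD8 libraries and 4316 to 5259 CPM in the others. Their part in the ribosomal protein values was not tested. Of 6 T cell markers, which summed to 4027 to 5967 CPM, 1 rose and 1 fell for lineage and 3 fell for strain, while after rescaling to 1000000 2 rose for lineage, 1 rose for strain and 0 fell. Of the naive markers 2 rose and 2 fell for lineage and 1 fell for strain after rescaling, and of the memory or effector markers 3 rose for each. The calls for regulatory T cells were 4 of 4 under both scalings. Markers of B cells summed to 35.2 to 67.0 CPM (1 of 5 fell for lineage and 3 for strain, and after rescaling 2 also rose for lineage), and of myeloid cells to at most 28.3 CPM (3 of 4 rose for lineage and 1 fell for strain, and after rescaling 3 and 0). All 4 red blood cell markers fell for strain, with sums of 15.9 to 28.8 CPM in B6 and 6.67 to 14.2 CPM in FlipFlop libraries. NK cell markers summed to 10.5 to 94.9 CPM, most of it Eomes in the cytotoxic lineage libraries (1 of 3 rose and 1 fell for lineage, and 1 rose for strain). The markers Cd14, Klra8, Ncr1 and Alas2 are not listed in the table.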

How the data were processed

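CD4 and CD8 LN T cells were sorted by flow cytometry, and RNA was measured in 12 libraries, 3 in each of 4 groups taken from the sample titles. Per the study's methods, RNA was extracted with RNeasy Plus, libraries were made with a low-input SMARTer kit, and paired-end reads were aligned to mm10 with STAR, whereas the submitters' processing notes name Trimmomatic and TopHat. The counting program and its annotation are not given in the sources used here. The authors deposited 1 table of normalised expression signal, which is CPM scaled by a TMM factor per library, so that the columns do not share one total. Whole reads could not be recovered: 85.6% to 87.0% of values under 100 CPM were whole within 0.02 reads, below the 95% required, so no count test was run.

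From the deposited values, log2(CPM + 0.5) of 11595 genes with at least 1 CPM in 3 libraries was fitted with limma 3.58.1 in R 4.3.3 (trend, 4 group means, 8 residual degrees of freedom), with p-values adjusted by Benjamini-Hochberg over these genes and no limit on fold. The 1214 remaining genes were left out. The fit was tested on simulated data. Paralogue ratios were tested by exact permutation within the other factor. Pseudogenes were matched with blastn 2.17.0 to GENCODE M21 transcripts (at least 80% identity over 50% of the length). Figures were drawn with matplotlib 3.10.9. Transcript lengths are those of the APPRIS principal transcript. Start regions are from RefSeq.

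Replicate numbers in the titles were checked by correlating deviations from group means over all tested genes. Same-numbered FlipFlop CD4 and CD8 libraries correlated at 0.44, 0.27 and 0.51, each over 0.1, so by this rule they are paired. The B6 libraries did so at 0.18, 0.09 and 0.35 and are not paired by the rule. Over the members alone these correlations were 0.56, 0.04 and 0.66 in B6 and 0.45, 0.06 and 0.61 in FlipFlop. Same-numbered libraries of different strains correlated at -0.09 to 0.29 over all tested genes. The rule thus cannot show which libraries share a mouse or a sort, and no label says what a number stands for. No 2 columns were identical.

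Named members were the 8 largest falls for lineage and for strain among called members (there were no rises), the 5 highest and 5 lowest by mean CPM, paralogue pairs, Rpl13, Rpl13a and members on chromosome 6. From each related list up to 2 rises and 2 falls per effect were eligible. The members, lists and rules were chosen with earlier results of these data known. Members singled out otherwise (Rps29, Rpl24, Rpl21, Rpl41) were chosen after their values were seen. Some genes that these rules name are not reported here.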

Additional observations from a re-analysis of the deposited data

How the results depend on the processing

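The median of the members stayed below 0 for lineage and strain, and the calls for lineage stayed within 1.5 times of 74, under every alternative run except those named here. Rescaling the columns to an equal sum of the members, which removes a shift of the whole family, gave 7 calls for lineage and 12 for strain with medians of 0.0096 and 0.043. Another alternative set a limit of more than 5-fold and took an unadjusted p under 0.05 (limma) in place of the adjusted one. It gave 0 calls in each of the 6 comparisons of groups, lineages or strains, beside 0.379% to 2.21% of all genes tested. For strain, rescaling to 1000000 gave 40 calls (6.51% of all genes tested fell) and a fit without eBayes 42 (13%), against 68. In B6, with 1 call, median-of-ratios rescaling gave 2 (11.3%), while no filter on low values gave 0 (10.3%, with 7 members at an unadjusted p under 0.05) and a fit of the 6 libraries alone 0 (8.30%, with 6). Between the helper lineage groups the fit of 6 libraries gave 23 calls (5.11%) against 76, and between the cytotoxic lineage groups a fit without eBayes gave 1 (3.14%) and pseudogenes added to their members, an alternative chosen after the data were seen, gave 0, against 2. The causes were not tested. Without the 10 highest genes in the denominator the B6 CD8 share was 21.2%, and a pseudocount of 1 gave 0.013 for the lineage difference of the ratio of Rps4l to Rps4x.

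With the replicate number as a block, 79 members were called between the FlipFlop groups (18.4% of all genes tested fell), whose libraries are paired by the check, 6 in B6 (13.2%), whose libraries are not, and 2, Rps29 among them, for the difference between the strains' lineage differences (8.23% of all genes tested). In the other comparisons the block changed no count by over 1.5 times.

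Leaving out 1 library at a time gave 54 to 78 calls for lineage, 35 to 76 for strain, 0 to 22 in B6, 47 to 78 between the FlipFlop groups, 1 to 3 between the cytotoxic and 13 to 78 between the helper lineage groups. Medians ran from -0.44 to -0.32 for lineage and from -0.39 to -0.27 for strain. The ratio difference for lineage ran from 0.23 to 0.29 for Rpl7l1 to Rpl7, from 0.10 to 0.13 for Rpl36al to Rpl36a, and from -0.24 to 0.045 for Rps4l to Rps4x. For strain it ran from -0.12 to 0.050 for Rpl22l1 to Rpl22 and from -0.30 to 0.015 for Rpl39l to Rpl39. The lineage difference of Rpl39l reached 0.014 without replicate 1 of FlipFlop CD4 and that of Rpl7l1 ran from -0.051 without replicate 1 to 0.0052 without replicate 3 of B6 CD4.

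Of the differences of 31 named members, only Rps27l (0.071) and Rpl7l1 (0.10) for lineage changed sign after rescaling to 1000000, and 16 lost their call. With an equal sum of the members, 32 changed sign. For strain these were Rpl4 (0.14), Rpl32 (0.046), Rps6 (0.066), Rpl13 (0.0097), Rpl23a (0.046), Rpsa (0.0034), Rps3a1 (0.062), Rpl6l (0.20), Rps3a2 (0.079), Rps27l (0.19), Rpl22l1 (0.035), Rpl22 (0.078), Rpl7l1 (0.19), Rpl7 (0.088), Rpl39 (0.062), Rpl36a (0.023), Rps4x (0.073) and Rpl13a (0.057). For lineage they were Rps2 (0.019), Rps19 (0.076), Rps27 (0.020), Rpl5 (0.014), Rps14 (0.089), Rpl27 (0.086), Rps24 (0.0032), Rps27l (0.32), Rpl22l1 (0.023), Rpl22 (0.12), Rpl7l1 (0.36), Rpl7 (0.10), Rps4x (0.076) and Rpl13a (0.023). At the estimated depths counting error is small except for Rpl39l and Rps4l, whose values rest on few reads.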
